A study of Homo sapiens with 48 samples.

Results

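The transcription factor p53 is kept low by the ubiquitin ligase MDM2 and accumulates when DNA is damaged or the cell is otherwise stressed. It binds paired copies of a short palindromic element and raises the transcription of genes that halt the cell cycle, repair DNA, trigger cell death or switch p53 off again. The mRNA of 9 such target genes was followed here in HEK293T cells, a human embryonic kidney line that expresses the SV40 large T antigen, a viral protein known to bind p53. The members were chosen by symbol: MDM2 and PPM1D, which feed back on p53, CDKN1A, BTG2 and ZMAT3, which restrain growth, RRM2B and XPC, which serve nucleotide supply and DNA repair, and GDF15 and FAS, which signal between cells. All 9 are among the 14685 genes with deposited counts.

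The cells had been transfected with a plasmid for NCBP1, a nuclear cap-binding subunit, fused to Halo, a protein tag that binds the probe covalently, and all 4 arms share this. In the T-REX arm, cells received a photocaged precursor of 4-hydroxynonenal (HNE), a reactive lipid-derived electrophile. Ultraviolet (UV) light then freed it beside the fusion protein, and the light alone control is labelled UV. There are 3 controls: DMSO, probe alone and light alone, and the study's methods list the probe as given in the light alone control too, so that what separates that control from T-REX is not clear from the sources used here. RNA was taken at 3, 6 and 12 h from 4 replicates of each arm, described as independent biological replicates, which gave 12 groups and 48 libraries. The model is 1 transfected line under transient expression, and no non-transfected cells are part of the comparison.

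The sequence around the start sites is shown first. Windows of 300 bases (250 before a transcript start and 50 after it, RefSeq, GRCh38.p14) were at hand for 8 members in 14 windows, and each was searched for the full p53 consensus of 20 bases without a spacer, a palindrome for which both strands read alike. A match with at most 2 mismatches stood in 0.649% of all 35116 windows. Among the members it stood in the internal start of MDM2 (2 overlapping windows) and in 1 window of FAS, its most downstream one. At most 3 mismatches were found in 5.2% of all windows, and added XPC and GDF15, where the match lies after the start. The 4 windows below are shown because they hold the closest matches, with the 20 bases of the closest match in each window in capitals. Other matches in a window, such as 1 with 3 mismatches after the marked site of MDM2, were left in lower case. The position given is that of the first capital, counted from the transcript start as 0.

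MDM2, chr12:68808767-68809066, plus strand, 2 mismatches, first capital at -94: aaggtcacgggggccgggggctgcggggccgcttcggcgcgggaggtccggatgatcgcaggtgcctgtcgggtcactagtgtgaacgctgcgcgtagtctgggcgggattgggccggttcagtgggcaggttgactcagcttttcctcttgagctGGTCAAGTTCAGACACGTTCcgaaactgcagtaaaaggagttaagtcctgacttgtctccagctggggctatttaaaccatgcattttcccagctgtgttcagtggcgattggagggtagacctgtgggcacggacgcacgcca
FAS, chr10:88991181-88991480, plus strand, 2 mismatches, first capital at -122: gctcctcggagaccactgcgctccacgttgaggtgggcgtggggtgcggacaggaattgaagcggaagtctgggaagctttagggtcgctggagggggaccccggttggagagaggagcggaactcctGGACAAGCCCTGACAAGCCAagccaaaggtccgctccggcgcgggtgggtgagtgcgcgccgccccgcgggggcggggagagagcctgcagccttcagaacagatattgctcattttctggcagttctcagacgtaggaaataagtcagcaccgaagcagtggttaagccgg
XPC, chr3:14178552-14178851, minus strand, 3 mismatches, first capital at 12: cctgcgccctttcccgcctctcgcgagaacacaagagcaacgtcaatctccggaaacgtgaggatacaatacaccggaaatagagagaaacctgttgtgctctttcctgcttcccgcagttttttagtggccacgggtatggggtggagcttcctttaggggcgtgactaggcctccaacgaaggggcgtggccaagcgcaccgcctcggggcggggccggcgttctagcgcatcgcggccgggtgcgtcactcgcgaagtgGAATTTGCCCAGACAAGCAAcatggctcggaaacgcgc
GDF15, chr19:18385908-18386207, plus strand, 3 mismatches, first capital at 28: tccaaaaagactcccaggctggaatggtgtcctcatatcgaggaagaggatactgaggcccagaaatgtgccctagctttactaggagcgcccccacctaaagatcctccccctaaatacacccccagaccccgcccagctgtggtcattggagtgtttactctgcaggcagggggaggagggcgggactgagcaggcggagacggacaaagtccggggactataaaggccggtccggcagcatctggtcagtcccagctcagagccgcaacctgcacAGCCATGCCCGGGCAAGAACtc

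The closest match in the windows of BTG2, PPM1D and ZMAT3 had 4 mismatches, which 26.0% of all windows reach, and that of CDKN1A had 5. These matches are a description of the letters in these windows, and binding was not measured. Sequence outside these windows was not searched, so a member without a close match here may hold one elsewhere.

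The total count per library lay between 23952455 and 37099535 (median 29405598.5), and replicate libraries of a group differed by more than counting error in all 72 pairs (chi-square per degree of freedom of at least 3.15). Of 8 markers of the line, 7 were in the count tables, of 5 blood cell markers 0, and of 6 fibroblast markers 1 (COL1A1, 2.13 to 6.07 CPM). The line's markers ran from LHX1 (0.77 to 3.15 CPM, below COL1A1 by median) to VIM (437 to 668 CPM), and PAX2 was the missing one. Levels are given as CPM, read counts scaled to a common library total, after TMM scaling over the 48 libraries. All 9 members passed the filter on low counts, which removed 0 genes. GDF15 was the scarcest, with 67 counts in its lowest library, and MDM2 the most abundant, with 48211 in its highest. Exons of CDKN1A, MDM2, XPC and FAS overlap genes on the opposite strand, and whether the counting used strand is not stated in the sources used here.

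Per kilobase of exon (GENCODE 29, all exons of a gene merged) the members spanned a wide range of levels. At 3 h the median over 16 libraries was 51.0 RPKM for MDM2, 38.2 for CDKN1A, 25.2 for BTG2, 20.8 for PPM1D and 20.3 for RRM2B. It was 14.4 RPKM for ZMAT3, 13.1 for XPC, 7.90 for FAS and 1.61 for GDF15. At 12 h the order was the same except that RRM2B (26.9 RPKM) stood just above PPM1D (26.6), a gap smaller than the spread of either gene.

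**Figure D1:**
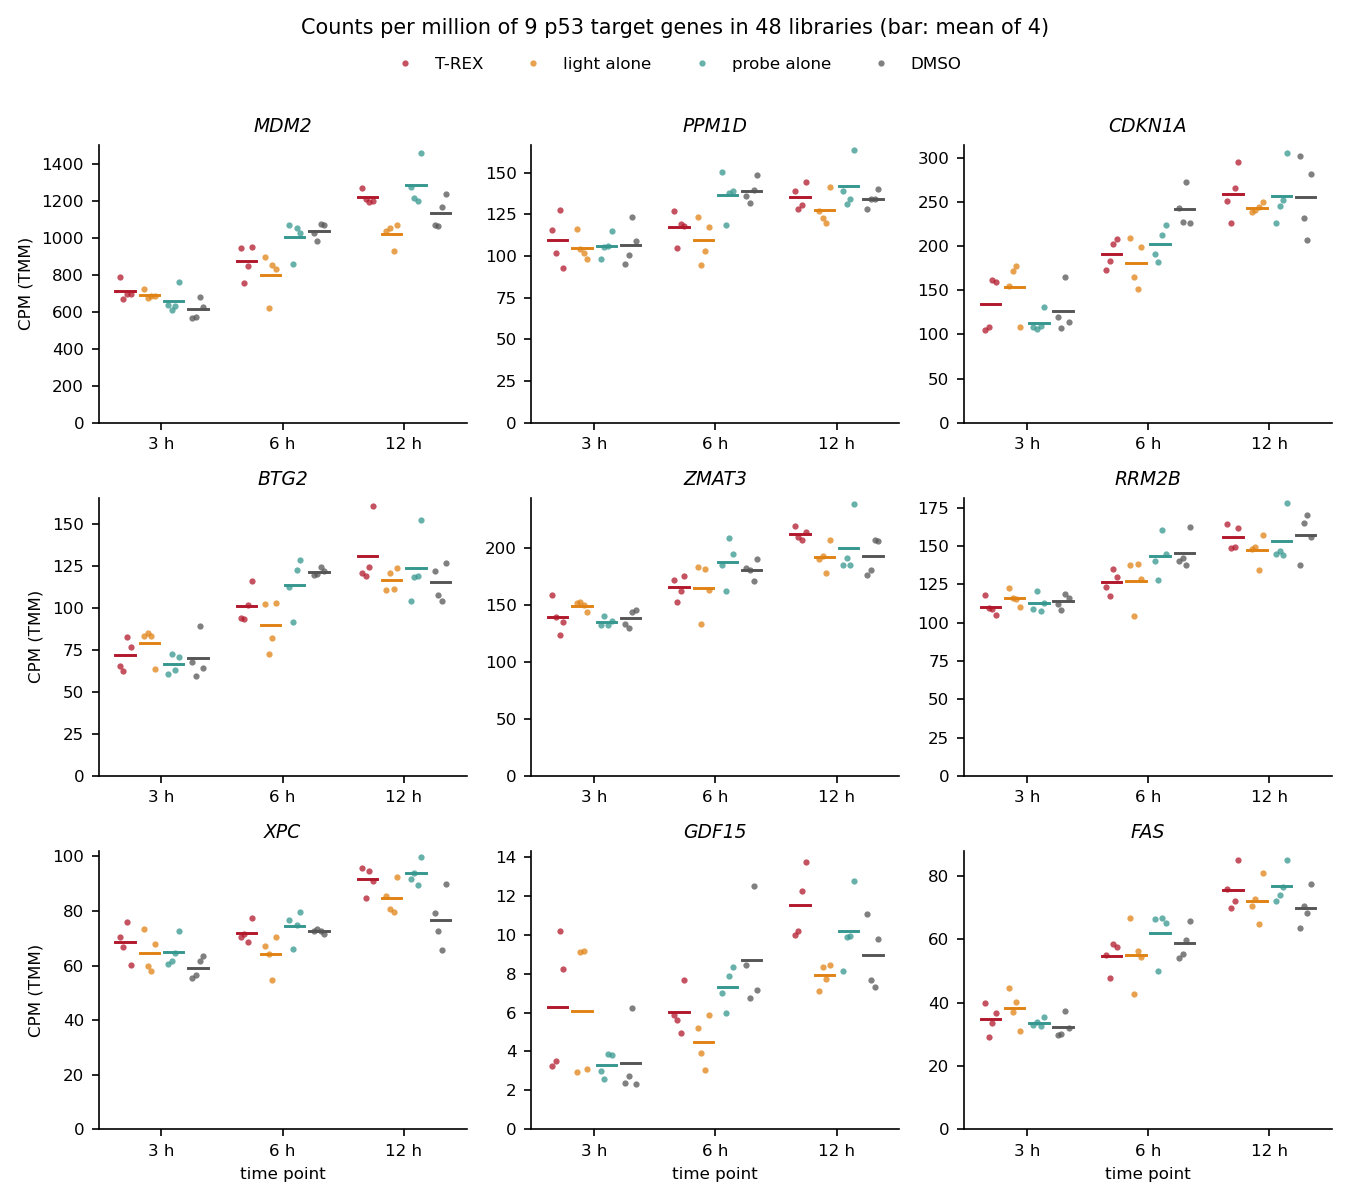
CPM (y axis, from 0) of each of the 9 genes at 3, 6 and 12 h (x axis), with 1 point per library, a bar at the mean of 4 libraries and the 4 arms in colour. The mean of every gene is higher at 12 h than at 3 h in each arm, the arms overlap in most groups of a time point, and GDF15 at 3 h runs from 3.23 to 10.2 CPM in T-REX and from 2.94 to 9.17 CPM in light alone.

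The 9 genes differed more between time points than between arms. At 12 h against 3 h, all 9 members had a higher level in every arm, and the number that passed the test (adjusted p of at most 0.05) was 9 in T-REX, 8 in light alone, 9 in probe alone and 9 in DMSO. Of all genes, 21.1% in T-REX, 20.4% in light alone, 21.3% in probe alone and 20.4% in DMSO were called higher in the same comparisons. The median log2 fold change of the members was 0.78 in T-REX, 0.39 in light alone, 0.89 in probe alone and 0.71 in DMSO, against medians of all genes of -0.01, -0.01, 0.01 and 0.01. Called higher in all 4 arms were 8 of the 9, all but GDF15, where 11.7% of all genes were. The libraries of both times did not overlap for 8 members in T-REX (18.4% of all genes), 8 in light alone (20.4%), 9 in probe alone (20.8%) and 9 in DMSO (16.6%). The hours since T-REX or its control and the hours since transfection advance together in every arm, as does any handling of a time point's libraries as a set, and these cannot be told apart. In RNA from whole cultures, more transcript per cell and more cells with the transcript cannot be told apart either.

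At 6 h the arms had not moved equally far. Called higher against 3 h were 5 members in T-REX (13.5% of all genes), 1 in light alone (14.3%), 8 in probe alone (11.0%) and 9 in DMSO (9.05%). The median log2 fold change was 0.25, 0.14, 0.60 and 0.76 in the same order. FAS alone was called higher in all 4 arms at 6 h, as 4.04% of all genes were. The 5 members called in T-REX were FAS, CDKN1A, BTG2, MDM2 and ZMAT3. Of these calls, that of CDKN1A was lost without T-REX 3 h replicate 2 (adjusted p = 0.051), and that of ZMAT3 without T-REX 3 h replicate 3 or T-REX 6 h replicate 4 (adjusted p up to 0.11).

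**Figure D2:**
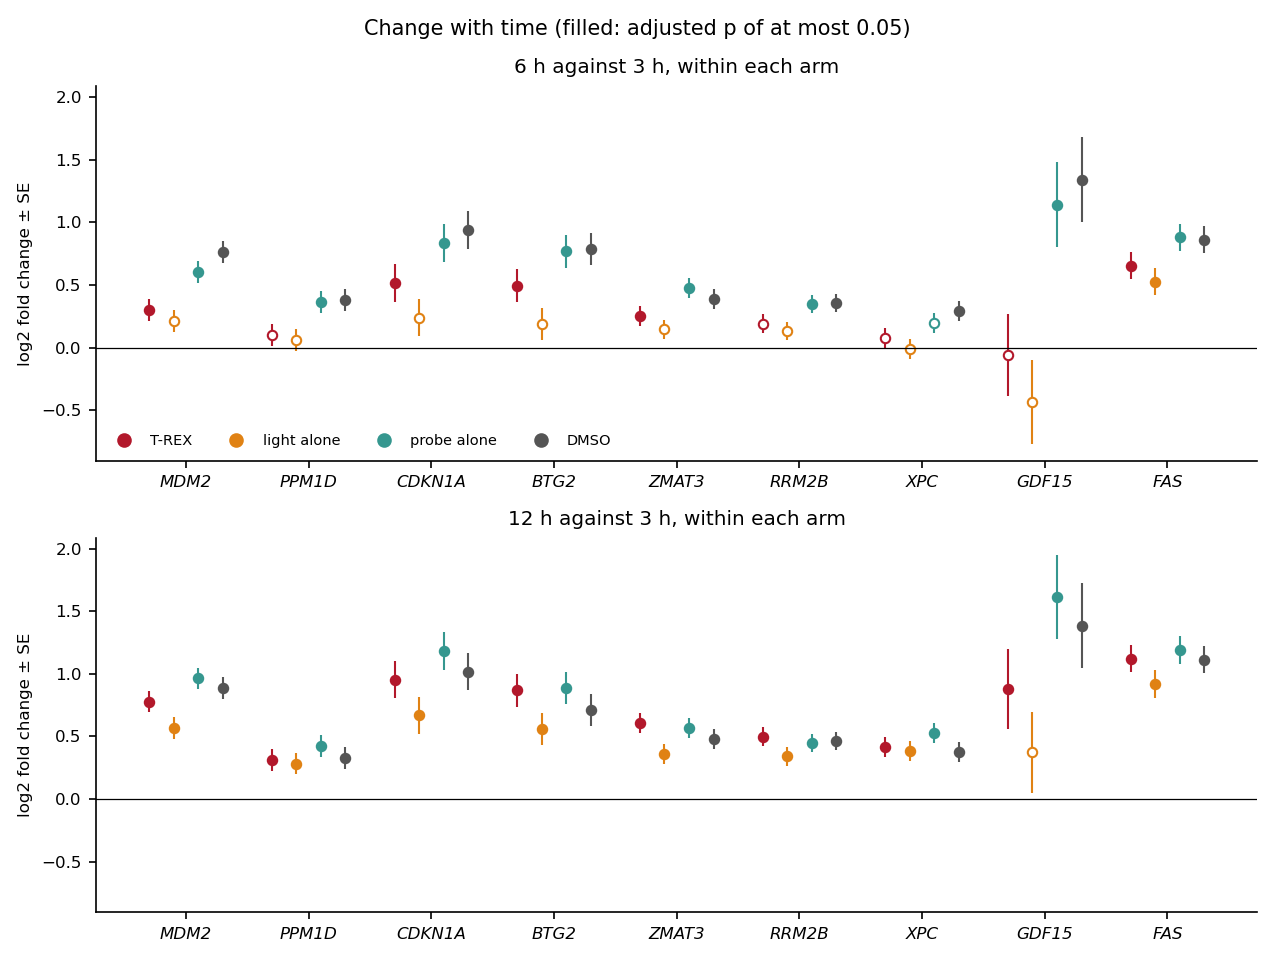
Log2 fold change (y axis, with its SE) of each gene (x axis) at 6 h and at 12 h against 3 h within each arm, from the fit of all 48 libraries, filled where the adjusted p was at most 0.05. At 6 h most points of probe alone and DMSO are filled and most of light alone are open, and at 12 h only GDF15 in light alone is open.

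Among the genes that feed back on p53, MDM2, the ubiquitin ligase that marks p53 for degradation, had 786, 667, 696 and 693 CPM in T-REX at 3 h, 946, 755, 849 and 948 at 6 h, and 1272, 1210.4, 1193 and 1198 at 12 h (replicates 1 to 4). In DMSO it had 568, 574, 682 and 626 CPM at 3 h, 1025, 984.7, 1075 and 1069.7 at 6 h, and 1067, 1062, 1168 and 1235 at 12 h. In these arms the 12 h libraries all stood above the 3 h libraries, and in DMSO 2 of the 4 libraries at 6 h had already reached the range of 12 h. Light alone gave 721, 672, 685 and 684 CPM of MDM2 at 3 h, 897, 622, 852 and 830.1 at 6 h, and 1039, 1051, 931 and 1071 at 12 h. Probe alone gave 636, 608, 633 and 762 CPM of MDM2 at 3 h, 1071, 857, 1054 and 1028 at 6 h, and 1274, 1216, 1197 and 1460.2 at 12 h. At 6 h replicate 2 was the lowest of its group in all 4 arms. MDM2 rose 1.71-fold in T-REX, 1.48-fold in light alone, 1.95-fold in probe alone and 1.85-fold in DMSO from 3 to 12 h (log2 SE 0.09 in each, edgeR adjusted p of at most 8.7e-07).

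PPM1D, which encodes the phosphatase WIP1 that reverses p53 phosphorylation, moved the least. Its CPM ran from 92.7 to 128 over the 16 libraries at 3 h (median 105) and from 120.0 to 163 at 12 h (median 134). The log2 fold change at 12 h was 0.31 ± 0.09 (SE) in T-REX, 0.28 ± 0.09 in light alone, 0.42 ± 0.09 in probe alone and 0.33 ± 0.09 in DMSO, all called (edgeR adjusted p between 8.9e-05 and 0.0076).

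Of the genes that restrain growth, CDKN1A encodes p21, an inhibitor of cyclin-dependent kinases. In DMSO it had 119, 107, 166 and 114 CPM at 3 h, 243, 228, 273 and 226 at 6 h, and 303, 232, 207 and 282 at 12 h. In T-REX it had 105, 109, 162 and 159.5 CPM at 3 h, 173, 183, 202 and 208 at 6 h, and 251, 226, 266 and 295 at 12 h. DMSO was at its final level by 6 h, whereas the 6 h libraries of T-REX all lay between those of 3 h and 12 h. Light alone had 155, 172, 178 and 109 CPM of CDKN1A at 3 h, 209, 165, 152 and 199 at 6 h, and 239, 242, 244 and 251 at 12 h. Probe alone had 108, 106, 109 and 131 CPM of CDKN1A at 3 h, 191, 182, 213 and 225 at 6 h, and 226, 245, 252 and 305 at 12 h. Light alone started highest and its 6 h libraries overlapped those of 3 h. The rise from 3 to 12 h was 1.94-fold in T-REX, 1.59-fold in light alone, 2.27-fold in probe alone and 2.02-fold in DMSO (log2 SE 0.15 in each, edgeR adjusted p of at most 0.00044).

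BTG2, an antiproliferative regulator of transcription and mRNA decay, and ZMAT3, a zinc finger protein that binds RNA, followed the same course. BTG2 ran from 59.2 to 89.4 CPM over the 16 libraries at 3 h (median 69.5), from 72.6 to 128 at 6 h (median 108) and from 104 to 161 at 12 h (median 119.9). Its log2 fold change at 12 h was 0.87 ± 0.13 in T-REX, 0.56 ± 0.13 in light alone, 0.89 ± 0.13 in probe alone and 0.71 ± 0.13 in DMSO. The highest BTG2 library at 12 h, T-REX replicate 4, stood well above the other 3 of its group, which lay between 119 and 124 CPM. ZMAT3 ran from 123 to 159 CPM at 3 h (median 139) and from 176 to 238 at 12 h (median 199). Its log2 fold change was 0.61 ± 0.08, 0.36 ± 0.08, 0.57 ± 0.08 and 0.48 ± 0.08 in T-REX, in light alone, in probe alone and in DMSO, and both genes were called higher in all 4 arms.

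Both genes of nucleotide supply and repair rose by less than CDKN1A and BTG2 in each arm. RRM2B encodes the small ribonucleotide reductase subunit that p53 induces, and XPC recognises damaged bases at the start of nucleotide excision repair. RRM2B ran from 105 to 123 CPM at 3 h and from 135 to 178 at 12 h, with no overlap of the 16 libraries of each time. Its log2 fold change was 0.50 ± 0.07 in T-REX, 0.34 ± 0.07 in light alone, 0.45 ± 0.07 in probe alone and 0.47 ± 0.07 in DMSO. XPC ran from 55.3 to 76.1 CPM at 3 h and from 65.5 to 99.8 at 12 h, and its log2 fold change was 0.42 ± 0.08, 0.39 ± 0.08, 0.53 ± 0.08 and 0.38 ± 0.08 in the same order. All 8 of these values were called. At 6 h XPC passed the test in DMSO (0.29 ± 0.08, edgeR adjusted p = 0.0086). In probe alone it stood at 0.20 ± 0.08 (adjusted p = 0.073), and was called where only genes with a mean of at least 100 counts were tested (adjusted p = 0.046).

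FAS, a death receptor at the cell surface, was called higher than at 3 h in all 4 arms at both 6 and 12 h. In T-REX it had 39.8, 29.3, 33.4 and 36.7 CPM at 3 h, 55.0, 47.8, 58.6 and 57.5 at 6 h, and 75.8, 69.9, 72.0 and 84.9 at 12 h. In DMSO it had 29.9, 30.1, 37.4 and 31.99 CPM at 3 h, 54.2, 55.5, 59.7 and 65.8 at 6 h, and 63.4, 70.5, 68.4 and 77.5 at 12 h. Each step up in T-REX left no overlap between time points. Light alone had 44.5, 37.1, 40.2 and 30.9 CPM of FAS at 3 h, 66.7, 42.6, 56.2 and 54.4 at 6 h, and 70.4, 72.7, 64.9 and 80.9 at 12 h. In probe alone the values were 33.0, 33.7, 32.7 and 35.3 CPM at 3 h, 66.4, 49.99, 66.6 and 65.2 at 6 h, and 72.0, 74.1, 76.4 and 85.1 at 12 h. Light alone overlapped between 3 and 6 h through replicate 2 of the later time. FAS rose 2.18-fold, 1.89-fold, 2.28-fold and 2.16-fold from 3 to 12 h in T-REX, in light alone, in probe alone and in DMSO (log2 SE 0.11 in each, edgeR adjusted p of at most 5.7e-09).

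GDF15, a secreted member of the TGF-beta family that stress of several kinds induces, was the least regular. T-REX had 3.23, 3.48, 10.2 and 8.22 CPM at 3 h, 5.87, 5.60, 4.93 and 7.70 at 6 h, and 9.998, 10.2, 12.2 and 13.7 at 12 h. Light alone had 2.94, 9.12, 9.17 and 3.10 CPM at 3 h, 5.19, 3.91, 3.03 and 5.88 at 6 h, and 7.13, 8.36, 7.74 and 8.42 at 12 h. At 3 h each of these arms held a pair of low and a pair of high libraries, the high ones near the level of 12 h. Probe alone had 3.00, 2.57, 3.86 and 3.83 CPM of GDF15 at 3 h, 7.01, 5.99, 7.90 and 8.35 at 6 h, and 8.14, 9.87, 9.92 and 12.8 at 12 h. DMSO had 2.39, 2.75, 6.23 and 2.32 CPM of GDF15 at 3 h, 8.43, 6.74, 12.5 and 7.17 at 6 h, and 11.1, 7.65, 7.33 and 9.81 at 12 h. The 3 h libraries of probe alone and DMSO lay below all their later ones, and DMSO replicate 3 was the highest of its group at both 3 and 6 h. From 3 to 12 h GDF15 rose 3.07-fold in probe alone (log2 SE 0.34, edgeR adjusted p = 0.00016), 2.61-fold in DMSO (SE 0.34, adjusted p = 0.0011) and 1.84-fold in T-REX (SE 0.32, adjusted p = 0.026). In light alone its log2 fold change was 0.37 ± 0.32 (edgeR adjusted p = 0.38). The T-REX call was lost without T-REX 3 h replicate 1, T-REX 3 h replicate 2 or T-REX 12 h replicate 4 (edgeR adjusted p up to 0.11).

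MDM4, a relative of MDM2 that holds back p53 activity, was higher at 12 h than at 3 h in T-REX (0.20 ± 0.06, edgeR adjusted p = 0.005) and in probe alone (0.18 ± 0.06, adjusted p = 0.015). In light alone and DMSO its log2 fold changes were 0.04 ± 0.06 and 0.09 ± 0.06. Of 19 measured genes on the list of p53 regulators, 1, 1, 2 and 0 were called higher and 2, 7, 6 and 6 lower at 12 h against 3 h in T-REX, in light alone, in probe alone and in DMSO. Of all genes, 20.6%, 19.0%, 21.0% and 18.4% were called lower in these comparisons. HIPK2, a kinase that phosphorylates p53, was the 1 regulator called lower in all 4 arms, as were 10.2% of all genes.

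The wider list of p53 targets was higher at 12 h as well. Of 56 other targets with counts, 42 were called higher at 12 h against 3 h in T-REX, 34 in light alone, 48 in probe alone and 39 in DMSO, and 0, 0, 1 and 1 were called lower. The shares of all genes called higher were the 21.1%, 20.4%, 21.3% and 20.4% given above. The targets' median log2 fold changes were 0.44, 0.30, 0.52 and 0.45. Called higher in all 4 arms were 31 of the 56, against 11.7% of all genes. SESN1, which restrains growth signalling under stress, rose by a similar log2 amount in each arm (0.78, 0.84, 0.85 and 0.91, SE 0.05). PMAIP1, a BH3-only death gene, was called higher in T-REX (0.51 ± 0.11), probe alone (0.48 ± 0.11) and DMSO (0.65 ± 0.11), and in light alone stood at 0.24 ± 0.11 (edgeR adjusted p = 0.072). BBC3, another BH3-only gene, was called in probe alone only (0.79 ± 0.29, adjusted p = 0.024), and the pore-forming BAX and the stress sensor SESN2 were called in 0 arms, with log2 values from -0.04 to 0.26 for BAX and from -0.18 to 0.19 for SESN2.

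Genes that the DREAM complex, which acts downstream of p21, holds down were mostly lower. Whether p53 or p21 had a part in this was not tested. Of 24 such cell cycle genes, 15, 14, 18 and 18 were called lower at 12 h against 3 h in T-REX, in light alone, in probe alone and in DMSO. Of all genes, 20.6%, 19.0%, 21.0% and 18.4% were. Their median log2 fold changes were -0.27, -0.20, -0.28 and -0.25. Called lower in all 4 arms were 14 of the 24 (10.2% of all genes), among them the mitotic genes CCNB1, PLK1, CDC20 and AURKA, and FANCD2 was called higher in all 4 arms.

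**Figure D3:**
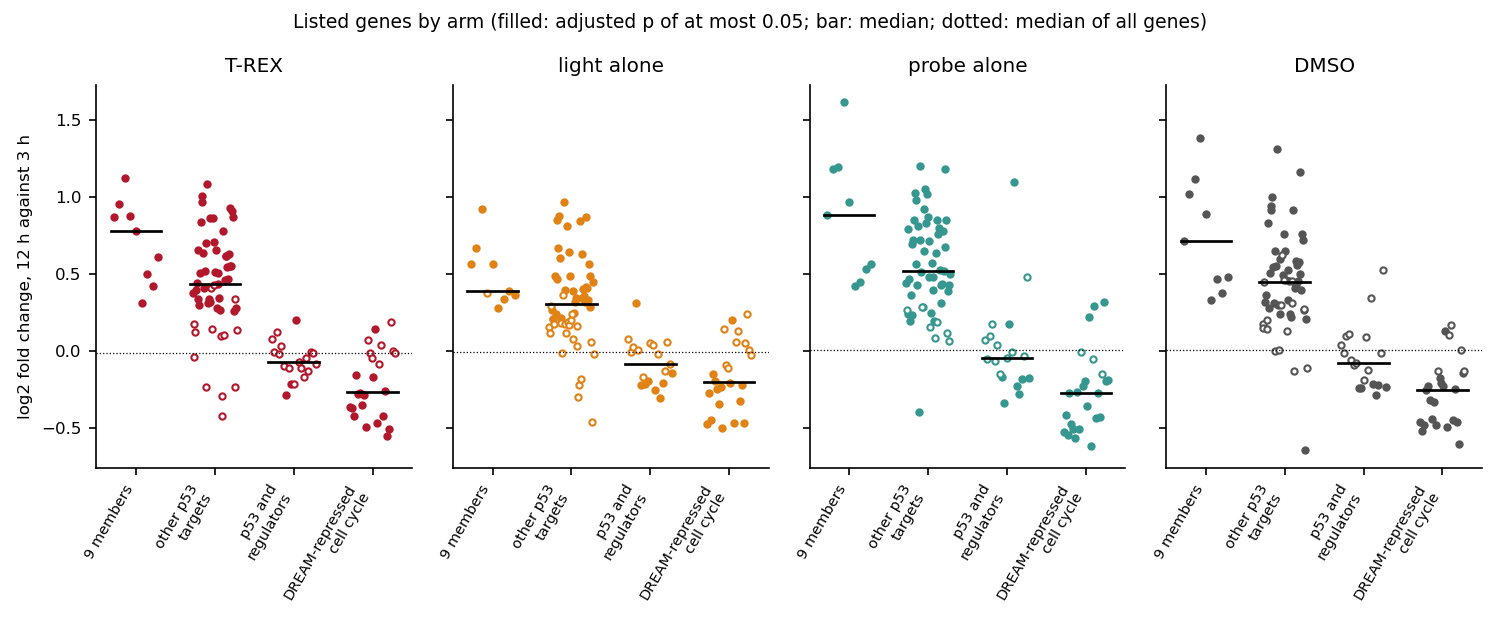
Log2 fold change at 12 h against 3 h (y axis) of every measured gene of 4 lists (x axis) in each arm, filled where the adjusted p was at most 0.05, with the median of each list as a bar and the median of all genes as a dotted line. In every arm the bars of the members and of the other targets lie above the dotted line and that of the DREAM-repressed genes below it.

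Against this course, the question the arms pose is whether electrophile release at NCBP1 alters the targets. A member was to be counted when T-REX was called in 1 direction against 2 or all of the 3 controls, and 0 of 9 were at 3, 6 or 12 h, where 0.947%, 0.136% and 1.4% of all genes were. Of the other p53 targets, 0 of 56 met it at each time. Single comparisons gave 2 calls among the 81 values of the members, both at 12 h. In these 9 comparisons the share of all genes called ran from 0.109% (probe alone, 6 h) to 10.9% (DMSO, 12 h). In simulated data, 70%, 75% and 78% of genes changed by 0.5 on the log2 scale were recovered between T-REX and DMSO at 3, 6 and 12 h. Of the comparisons between arms, only that with DMSO was simulated, for genes drawn at random, and the rule itself was not. Changes smaller than 0.5, the size of most of the members' differences, were not simulated either.

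At 3 h, T-REX and light alone stood close together: the members' log2 differences ran from -0.20 to 0.08 (median -0.07), and 0 were called (0.197% of all genes). Against probe alone they ran from -0.01 to 0.94 (median 0.09, 0 called, 1.05% of all genes), and against DMSO from -0.04 to 0.88 (median 0.09, 0 called, 5.99% of all genes). The unadjusted p was at most 0.05 for 0, 0 and 2 members, and for 14.8%, 18.0% and 21.9% of all genes. The highest values are those of GDF15, 0.94 ± 0.51 against probe alone and 0.88 ± 0.51 against DMSO (edgeR adjusted p = 0.35 for both), for which T-REX held low and high pairs of libraries. With the authors' 2 RUV factors as covariates, GDF15 passed against both (0.80 and 0.79, edgeR adjusted p = 0.0014 and 0.0010), while against light alone it stood at 0.03 (adjusted p = 0.93). In that fit GDF15 was also called higher in light alone than in probe alone and DMSO (0.76 for both, edgeR adjusted p = 0.0015 and 0.0046). The same covariates gave XPC higher in T-REX than in DMSO (0.21, edgeR adjusted p = 0.010). MDM2 reached 0.22 ± 0.07 against DMSO (edgeR adjusted p = 0.070), and DESeq2 called it.

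At 6 h, T-REX lay below probe alone and DMSO in all 9 members, with 0 called. The median log2 difference was -0.18 against probe alone (range -0.28 to -0.05, 0.109% of all genes called) and -0.25 against DMSO (range -0.54 to -0.01, 0.415% of all genes called). Against light alone it was 0.10 (range -0.01 to 0.41, 0.218% of all genes called). The unadjusted p was at most 0.05 for 3, 6 and 1 members against probe alone, DMSO and light alone, and for 6.56%, 12.4% and 11.7% of all genes. Every T-REX library lay below every DMSO library for 5 members, CDKN1A, MDM2, BTG2, PPM1D and RRM2B, as for 3.47% of all genes. The smallest adjusted p was that of CDKN1A (-0.34 ± 0.09, edgeR adjusted p = 0.11). DESeq2 called CDKN1A lower, a fit of only these 2 arms called CDKN1A, BTG2 and PPM1D lower, and the RUV covariates gave CDKN1A, GDF15, PPM1D and RRM2B lower against DMSO, with PPM1D lower against probe alone as well and XPC higher than light alone (0.17, edgeR adjusted p = 0.019). All 3 comparisons use the same T-REX libraries.

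At 12 h, T-REX stood above light alone in 9 of 9 members (median log2 difference 0.12), and MDM2 was called (0.26 ± 0.06, edgeR adjusted p = 0.028; 1.29% of all genes). The T-REX libraries had 1193 to 1272 CPM of MDM2 and those of light alone 931 to 1071, with no overlap. This call was lost in 7 of the 16 fits that left out a library, those without T-REX 12 h replicate 1, 2, 3 or 4 or light alone 12 h replicate 1, 2 or 3 (edgeR adjusted p up to 0.16). GDF15 also did not overlap (0.55 ± 0.14, edgeR adjusted p = 0.056), which makes 2 members of 9 where 5.47% of all genes did so. GDF15 was called against light alone by DESeq2 (adjusted p = 0.015), with the RUV covariates (edgeR adjusted p = 0.0015) and when just T-REX and light alone were fitted (0.0012), where ZMAT3 was called too, and the RUV covariates also gave it higher than DMSO (0.37, edgeR adjusted p = 0.014). Against probe alone the members' log2 differences were centred near 0 (median 0.01, range -0.08 to 0.18), with 0 called (0.701% of all genes) and an unadjusted p of at most 0.05 for 0 (11.1% of all genes). Against DMSO the median was 0.11, and XPC was called (0.25 ± 0.07, edgeR adjusted p = 0.026). A call for 1 of 9 members is close to the share of all genes called in this comparison, 10.9%.

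For XPC the 12 h values were 95.8, 84.7, 94.7 and 90.9 CPM in T-REX and 79.4, 72.5, 65.5 and 89.9 in DMSO. They were 85.6, 80.7, 79.6 and 92.5 CPM in light alone and 91.7, 93.9, 89.7 and 99.8 in probe alone. DMSO replicate 4 reached into the range of the other arms, and the remaining DMSO libraries lay below all others. Probe alone was called higher than DMSO too (0.29 ± 0.07, edgeR adjusted p = 0.022, 5.11% of all genes called), after 0 members at 3 h and 0 at 6 h (0.00681% and 0.0272% of all genes). The T-REX call was lost without T-REX 12 h replicate 1, 3 or 4 or DMSO 12 h replicate 2 or 3 (edgeR adjusted p up to 0.089), and in the fit of only both arms. The probe alone call was lost in that kind of fit and without probe alone 12 h replicate 2 or 4 or DMSO 12 h replicate 2 (adjusted p up to 0.068).

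**Figure D4:**
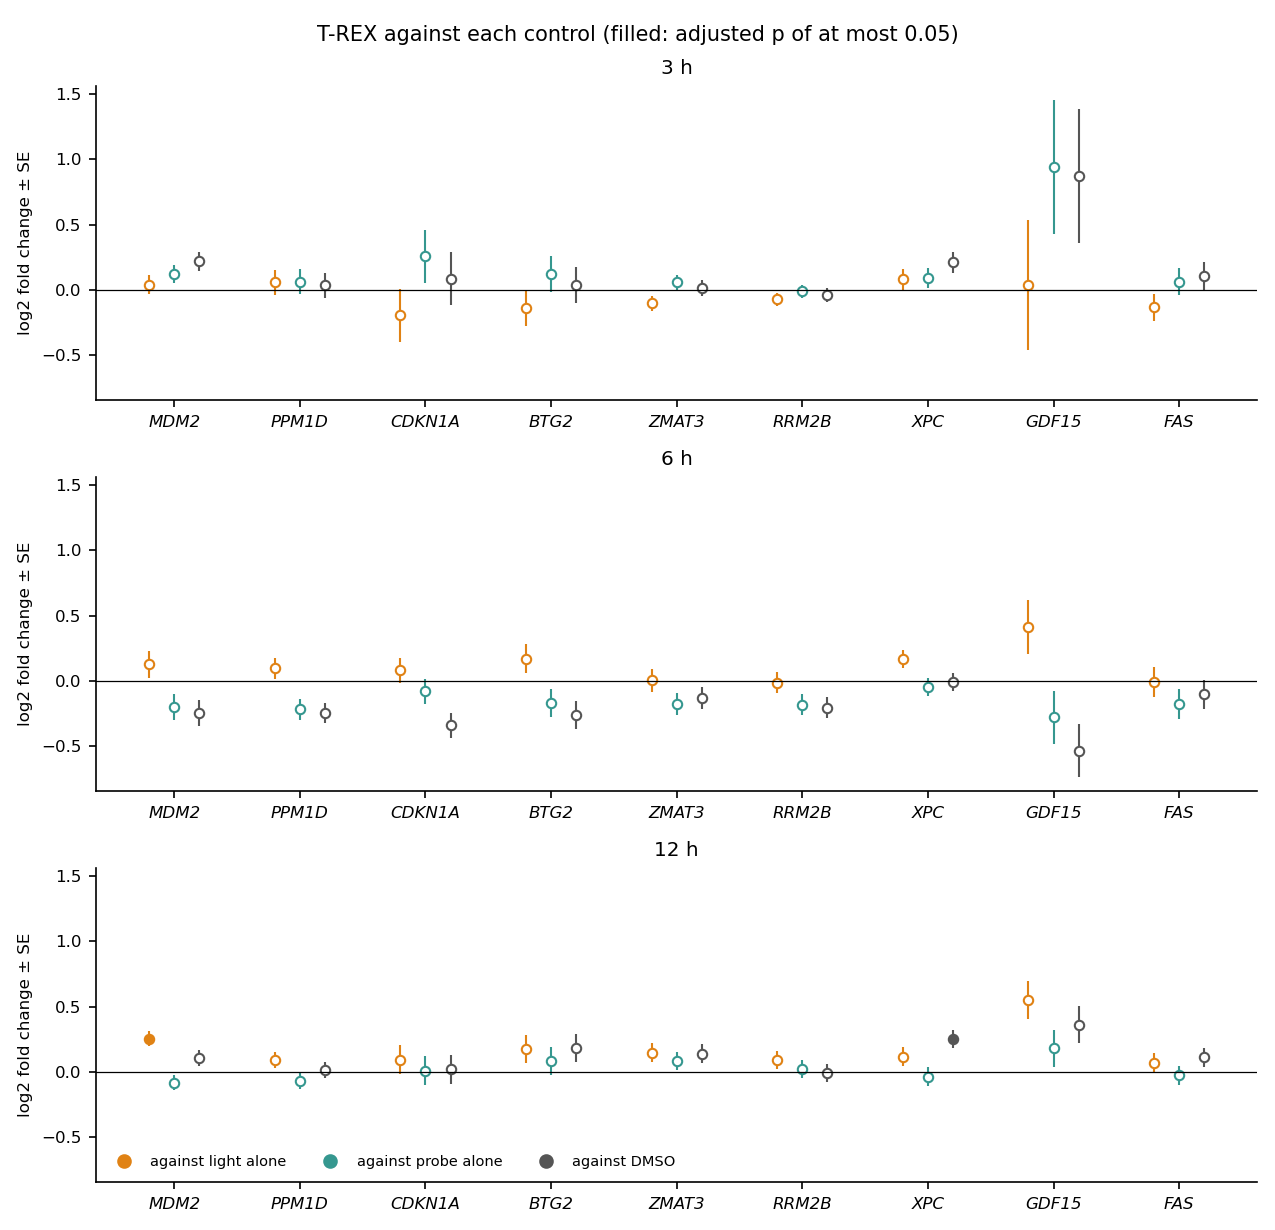
Log2 fold change of T-REX against each control (y axis, with its SE) for each gene (x axis) at 3, 6 and 12 h, filled where the adjusted p was at most 0.05. At 6 h the points against probe alone and DMSO all lie below 0, and filled points appear only at 12 h, for MDM2 against light alone and XPC against DMSO.

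Around the members, MDM4 was the 1 of 19 p53 regulators that met the rule of at least 2 controls, at 12 h, as 1.4% of all genes did. Its CPM were 298, 282, 272 and 274 in T-REX, 235, 237, 224 and 239 in light alone, 265, 256, 243 and 265 in probe alone, and 201, 221, 228 and 253 in DMSO. All T-REX libraries stood above all libraries of the controls, and the share of all genes for which this held is not given. MDM4 was higher by 0.27 ± 0.06 (log2) than light alone (edgeR adjusted p = 0.0080), by 0.32 ± 0.06 than DMSO (adjusted p = 0.00068) and by 0.13 ± 0.06 than probe alone (adjusted p = 0.39), and probe alone was itself above DMSO (0.19 ± 0.06, adjusted p = 0.040). Of all genes, 1.29%, 10.9% and 0.701% were called in T-REX against light alone, DMSO and probe alone, and 5.11% in probe alone against DMSO. At 3 h MDM4 was higher than DMSO alone (0.21 ± 0.05, edgeR adjusted p = 0.025), where 5.99% of all genes were called. At 6 h MDM4 was called against 0 controls.

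The controls differed from each other as well. At 3 h light alone stood above probe alone in 9 of 9 members and above DMSO in 8, and at 6 h below both in 9 of 9, with 0 called at either time (0.232% and 0.0613% of all genes called against probe alone, 0.00681% and 0.00681% against DMSO). Against DMSO at 6 h the median log2 difference was -0.34, the unadjusted p was at most 0.05 for 7 members (14.4% of all genes), and 6 did not overlap (CDKN1A, MDM2, BTG2, PPM1D, XPC and GDF15), as 2.61% of all genes did in this direction. GDF15 stood 0.95 ± 0.21 below DMSO (log2, edgeR adjusted p = 0.13), CDKN1A 0.42 ± 0.09 below (adjusted p = 0.14) and MDM2 0.38 ± 0.10 below (adjusted p = 0.16). DESeq2 called 5 of these 6 lower, all but XPC. With the RUV covariates 7 members were called lower than DMSO at 6 h, these 6 and RRM2B, and GDF15, PPM1D and XPC lower than probe alone. At 3 h the same covariates gave CDKN1A, GDF15 and ZMAT3 higher in light alone than in probe alone, and GDF15 higher than in DMSO. At 12 h MDM2 was lower in light alone than in probe alone (-0.34 ± 0.06, edgeR adjusted p = 0.0066, 0.415% of all genes called), a call lost without light alone 12 h replicate 3 (adjusted p = 0.066), and 0 members were called between light alone and DMSO (0.0136% of all genes).

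Whether these differences themselves changed with time was tested by contrasts among all 48 libraries. For T-REX against each control, 0 of 9 members differed between 6 h and 3 h or between 12 h and 3 h, by a rule that 0.0% and 0.00681% of all genes met. The lowest adjusted p was that of MDM2 for T-REX minus DMSO at 6 h (edgeR adjusted p = 0.092), and DESeq2 called this one. Among the controls, a contrast added after the data were seen, light alone minus DMSO changed from 3 to 6 h for MDM2 (-0.55 ± 0.12, edgeR adjusted p = 0.032, 0.613% of all genes called), where light alone stood 0.18 ± 0.07 above DMSO at 3 h and 0.38 ± 0.10 below it at 6 h. The same contrast was -1.78 ± 0.48 for GDF15 (edgeR adjusted p = 0.060), -0.70 ± 0.21 for CDKN1A (0.087) and -0.60 ± 0.18 for BTG2 (0.087). The MDM2 call was kept in 39 of 48 fits that left out a library (edgeR adjusted p from 0.011 to 0.13). It was lost without light alone 3 h replicate 2 or 3, DMSO 3 h replicate 1, 2 or 4, light alone 6 h replicate 2 or 3, or DMSO 6 h replicate 1 or 3.

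Replicates of a group varied together across members. Each library's deviation from its group mean (log2 CPM) was correlated for all 36 pairs of members over 48 libraries: 34 correlations were positive, 23 had an adjusted permutation p of at most 0.05 both by Pearson's r and by Spearman's rho, and the median r was 0.48. For comparison, the median size of r between a member and all other genes was between 0.13 (PPM1D) and 0.29 (CDKN1A). CDKN1A moved with GDF15 (r = 0.85, rho = 0.84, 0.81 without the 2 farthest libraries) and with BTG2 (r = 0.85, rho = 0.87, 0.82 without them). RRM2B moved with ZMAT3 (r = 0.85, rho = 0.83, 0.79 without them). For each of these the permutation p was 1e-05, the smallest that permuting within groups could give here, and the adjusted p was 5.14e-05 for r and for rho. Within 3, 6 and 12 h, r was 0.86, 0.83 and 0.94 for CDKN1A with GDF15, 0.91, 0.82 and 0.86 for CDKN1A with BTG2, and 0.73, 0.90 and 0.84 for RRM2B with ZMAT3. Other pairs of these genes were less alike. BTG2 had r = 0.47 with RRM2B (rho = 0.43, permutation p = 0.0041 and 0.0078, adjusted p = 0.0083 and 0.016) and r = 0.44 with ZMAT3 (rho = 0.38, permutation p = 0.016 and 0.029, adjusted p = 0.026 and 0.045). The value was r = 0.08 between CDKN1A and ZMAT3 (rho = 0.09, permutation p = 0.64 and 0.62, adjusted p = 0.68 and 0.66) and r = -0.05 between GDF15 and RRM2B (rho = -0.07, permutation p = 0.74 and 0.67, adjusted p = 0.76 and 0.69).

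**Figure D5:**
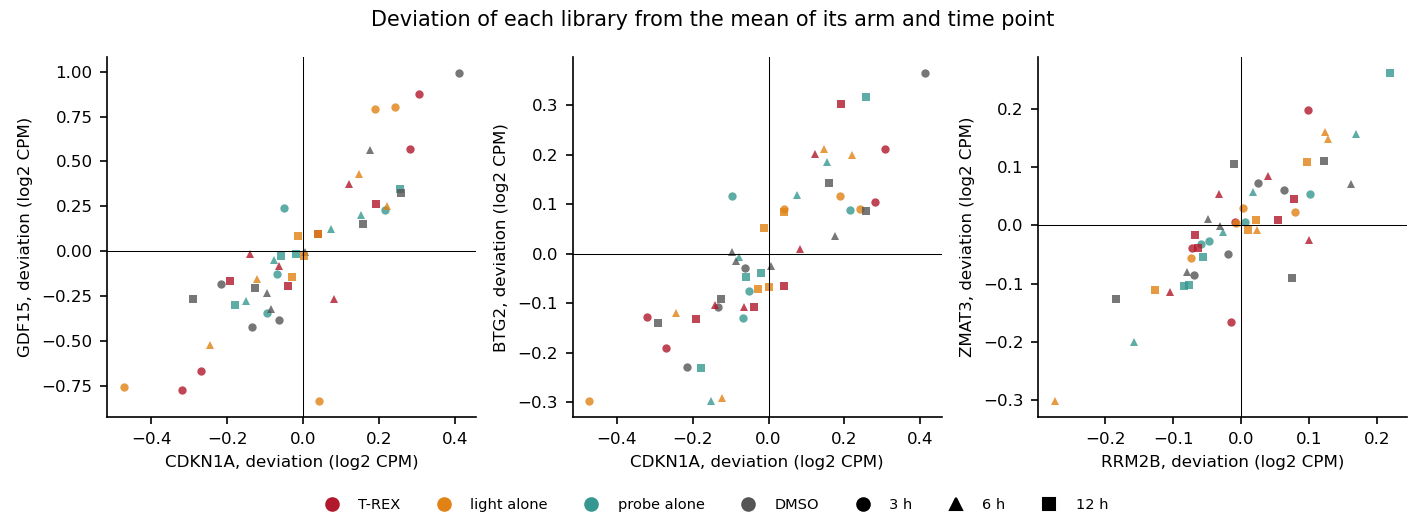
Deviation of each of the 48 libraries from the mean of its arm and time point, in log2 CPM, for CDKN1A (x) against GDF15 and BTG2 (y), and for RRM2B (x) against ZMAT3 (y), with arms in colour and time points by symbol. The points rise along a line in each panel (r = 0.85 in all 3), and the widest spread is that of GDF15 at 3 h.

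The spread was uneven between members. At 3 h the SD of log2 CPM of GDF15 was 0.84 in T-REX, 0.92 in light alone, 0.28 in probe alone and 0.67 in DMSO, and that of CDKN1A 0.34, 0.33, 0.14 and 0.28. For genes above 3 on the log2 CPM scale the median SD in these groups was 0.13, 0.09, 0.09 and 0.09. RRM2B varied little in every arm at 3 h, with SDs from 0.06 to 0.07. At 67 counts in the lowest library, counting error alone gives GDF15 an error of 12.2%, well under its spread at 3 h.

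By the course over the 12 group means, the members resembled each other (Pearson's r of 0.83 to 0.98 over their 36 pairs, median 0.94), points that share libraries and a common rise with time. The genes most like each member were ANKRA2 (r = 0.98) for CDKN1A, DNAI3 (0.99) and a gene without a symbol for MDM2, and KMT2C (0.96) and PVT1 (0.96) for PPM1D. They were HOXC13-AS (0.98) and CDKN1A (0.98) for BTG2, JPH3 (0.96) and PLK3 (0.96) for GDF15, and E2F7 (0.98) and a gene without a symbol for RRM2B. For XPC they were SNX19 (0.98) and ITIH5 (0.98), for ZMAT3 DRAM1 (0.99) and TP53INP1 (0.98), and for FAS PDLIM3 (0.99) and ACER2 (0.99). Of these genes 1 is a member and 3 (PLK3, DRAM1 and TP53INP1) are on the list of other p53 targets.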

How the data were processed

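Ribosomal RNA was depleted, stranded libraries were prepared and paired-end reads were sequenced on an Illumina NovaSeq by the authors. The authors deposited raw counts of reads per gene for each time point, log2 CPM, and 2 factors of unwanted variation (RUV), a score per library in the deposited sample descriptions. The submitters' processing notes name bcl2fastq; the aligner, counter, strand setting and genome build of the counts are not given in the sources used here, and the Reporting Summary lists cutadapt, TopHat and Cufflinks. A deposited table of RUV-adjusted values was not used.

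Groups were taken from the labels. Counts were tested with edgeR 4.0.16 (TMM, filterByExpr, robust quasi-likelihood F-test) in R 4.3.3, arms within the 16 libraries of a time point, and times and differences of differences in all 48 libraries. SE is the size of the log2 fold change over the root of F. p-values were adjusted over all 14685 genes by Benjamini-Hochberg, with a threshold of 0.05. The members and gene lists were chosen with earlier results of these data known, and lists are described by counts and medians only. Named beyond the 9 members are MDM4, 5 death and stress genes, other targets meeting the rule of at least 2 controls, at most 5 per direction and time (there were 0), and the 2 genes with the highest r over 12 group means, except that some genes these rules name are not reported here; HIPK2, FANCD2 and the mitotic genes were picked after their values were seen. Exon lengths are from GENCODE 29. Symbols are from a reference list of gene names, or from GENCODE 29 where that list gave none. Deviations were permuted within groups (100000 permutations, Python 3.11.15, scipy 1.17.1). Alternatives were DESeq2 1.42.0, RLE factors, no filter, a mean of at least 100 counts, the replicate number as a block, RUV covariates, fits of 2 arms, limma-trend (limma 3.58.1) on the deposited log2 CPM, and leaving out each library. Fits were tested on simulated counts. Reads were not analysed here.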

Additional observations from a re-analysis of the deposited data

Results flagged for a closer look

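In 7 of the 108 groups of 4 values (9 members in 12 groups), the highest or the lowest library lay apart from the other 3 by more than Dixon's critical share of the group's range at the level of 0.05, where chance gives about 1 in 20. Higher than the others were CDKN1A in probe alone 3 h replicate 4 (131 CPM against 106 to 109), BTG2 in T-REX 12 h replicate 4 (161 CPM against 119 to 124) and GDF15 in DMSO 3 h replicate 3 (6.23 CPM against 2.32 to 2.75). Probe alone 12 h replicate 4 was higher for RRM2B (178 CPM against 144 to 147) and for ZMAT3 (238 CPM against 185 to 191). Lower than the others were BTG2 in light alone 3 h replicate 4 (63.8 CPM against 83.4 to 85.0) and FAS in probe alone 6 h replicate 2 (49.99 CPM against 65.2 to 66.6).

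The difference between light alone and DMSO changed from 3 to 6 h for MDM2 by -0.55 on the log2 scale (SE 0.12, edgeR adjusted p = 0.032), by a contrast chosen after seeing the data. Its value was between -0.61 and -0.45 in the fits that left out a library, and -0.54 by DESeq2 (adjusted p = 0.0058).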

How the results depend on the processing

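The number of members called in all 4 arms at 12 h against 3 h was 8 in every alternative run. With RUV covariates, 1 member met the rule of at least 2 controls at 3 h (GDF15, higher), 1 at 6 h (PPM1D, lower) and 1 at 12 h (GDF15, higher). With them, 3 and 7 members were called between controls at 3 and 6 h, and 11, 2 and 11 other targets met the rule at 3, 6 and 12 h. The shares of all genes called in each alternative fit are not given here. These counts and those below can therefore not be set against them. DESeq2 gave 5 members called between controls at 6 h, 2 members called in all 4 arms at 6 h, and 1 and 2 other targets meeting the rule at 3 and 12 h. Fits of 2 arms gave 1 member called between controls at 12 h and 2 other targets meeting the rule at 12 h. Taken over all times, the replicate numbers did not pair most libraries. Deviations over all genes correlated above 0.1 in 23 of 72 same-numbered pairs, and 20 of the 72 correlated best with their own number. At 6 h, however, each T-REX library correlated best with the probe alone library of its own number (r between 0.03 and 0.27). With DMSO, no library of another arm did so at 6 h. With the replicate block, 3 members were called between controls at 6 h, 2 in all 4 arms at 6 h, and 2 other targets met the rule at 12 h; a replicate block within time, added after seeing the data, also gave 2 members called in all 4 arms at 6 h. With the block, PPM1D was called lower in T-REX than in DMSO at 6 h (adjusted p = 0.049) and XPC higher in probe alone at 6 h against 3 h (0.044). Both blocks called MDM2 for T-REX minus DMSO at 6 h against 3 h, and the block within time lost XPC in DMSO (0.05006) and ZMAT3 in T-REX at 6 h against 3 h. The cause of these shifts was not tested.

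Without 1 library, 0 to 1 members met the rule at 12 h, 1 being GDF15 without DMSO 12 h replicate 1, and 0 to 0 at 3 h and 6 h. Between controls, 0 to 0, 0 to 3 and 1 to 2 members were called at 3, 6 and 12 h, the shifts coming without light alone 6 h replicate 4, probe alone 6 h replicate 2, light alone 12 h replicate 3, probe alone 12 h replicate 2 or 4, or DMSO 12 h replicate 2. Called in all 4 arms at 6 h were 1 to 4 members, more without T-REX 3 h replicate 1, probe alone 3 h replicate 4, light alone 6 h replicate 2 or probe alone 6 h replicate 2. Of the other targets, 0 to 1, 0 to 0 and 0 to 4 met the rule at 3, 6 and 12 h, more than 0 without light alone 3 h replicate 1 or 4, DMSO 3 h replicate 3, T-REX 12 h replicate 2, probe alone 12 h replicate 3 or 4, or DMSO 12 h replicate 3 or 4.

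Removing no genes, the filter on low counts gave the same fit as none. Among single values of members, no called value changed sign, and of 4462 values called in neither fit the sign differed in 117. The fewest counts were those of GDF15, at 67 to 506.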

Other observations

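GDF15 and SESN2 are also known as genes that the stress factor ATF4 induces. Of 23 measured ATF4 targets, 4, 1 and 6 were called higher in T-REX than in at least 2 of 3 controls at 3, 6 and 12 h, where 0.177%, 0.0545% and 0.49% of all genes were. GDF15 did not meet this rule in the edgeR fit of all libraries without covariates, but met it with the RUV covariates at 3 and 12 h. SESN2, which is on both lists, was higher in T-REX than in DMSO at 12 h (0.47 ± 0.12 on the log2 scale, edgeR adjusted p = 0.025), and stood at 0.39 ± 0.12 against light alone (adjusted p = 0.16) and 0.19 ± 0.12 against probe alone (adjusted p = 0.64). At 3 h 3 of the 24 DREAM-repressed genes (CCNB1, TOP2A and CCNA2) were called lower in T-REX than in at least 2 controls (0.769% of all genes), a time at which CDKN1A was called against 0 controls. TP53I3, a p53 target for a quinone oxidoreductase, was higher than DMSO at 12 h in T-REX (0.71 ± 0.15, edgeR adjusted p = 0.0047) and in probe alone (0.70 ± 0.15, adjusted p = 0.013), and stood at 0.57 ± 0.15 between T-REX and light alone (adjusted p = 0.064). These genes were picked after their values were seen. Of all genes, 10.9% were called between T-REX and DMSO at 12 h, and 5.11% between probe alone and DMSO.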
